A study of Saccharomyces cerevisiae with 23 samples.

Results

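The comparison set 5 libraries taken at 4, 4.25, 4.5, 4.75 and 5 h in sporulation (SPO) medium, when recombination genes were at high levels, against the libraries taken at 0 and 2 h. The members were chosen by time, with earlier results of these data known. They are 5 and 2 of the 23 libraries of a meiotic time course that ran to 10 h with 1 library per time. Every library, early ones included, came from strain A 33606, in which the copper-inducible CUP1 promoter drives both IME1 and IME4. Cells were grown in YPD, then overnight in BYTA, then moved to SPO medium, and after 2 h the culture received 25 mM copper sulphate. Total RNA was sequenced with random-hexamer priming and given per gene as FPKM, a fragment count divided by gene length and library size. The labels attach the IME1 and IME4 induction to the 2 h sample, so "uninduced" holds by label for 0 h only. No library has a replicate, and nothing says that the times came from separate cultures. The p-values below therefore measure only the spread between times within a group, which for the early group is the difference between 0 and 2 h.

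Budding yeast starved of nitrogen and glucose leaves the mitotic cycle and enters meiosis when Ime1, the master activator, joins Ume6 on the URS1 element of early meiotic genes and turns a repressor into an activator. Early genes carry premeiotic replication and prophase, in which Spo11 cuts DNA, chromosomes pair along a protein axis and the breaks are repaired on the homologue. Ndt80 later switches on the middle genes for the divisions and spore formation. Ime4 is the catalytic subunit of the yeast mRNA methyltransferase, which acts during this programme.

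Genes were tested as log2(scaled FPKM + 1), where scaling divides each library by its median ratio to the geometric mean of the 7 libraries. All levels below are scaled FPKM, and the 5 prophase values are given in time order. FPKM is per length, but sums of a list are dominated by its highest members. A gene was called when its Benjamini-Hochberg adjusted p from limma, over 6502 genes tested, was under 0.05 and its log2 change was at least 1 in size. The implied fragments on listed genes numbered 600224 to 1467241 in prophase libraries, against 691892 at 0 h and 941169 at 2 h. SNR39B, a small nucleolar RNA, held 24.2% to 39.9% of all FPKM in prophase libraries, against 52.1% and 48.1% at 0 and 2 h. The scaling divisors were 0.765 to 1.464 for the prophase libraries, against 0.654 at 0 h and 0.868 at 2 h. A change in RNA per cell cannot be told apart from a change in the make-up of the RNA in these values.

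The stage label was checked against markers. All 8 markers of meiotic prophase (DMC1, HOP1, RED1, REC8, ZIP1, SPO11, MEK1 and IME2) were called higher, and their summed level was 2165 to 2854 in prophase libraries, against 29.9 at 0 h and 36.1 at 2 h. Markers of cells past prophase summed to 24.7 to 204 in prophase libraries, against 47.1 and 22.4 at 0 and 2 h, and 0 of 6 were called; the highest sum was that of the 5 h library. The 3 spore markers summed to 3.48 to 12.7 in prophase libraries, against 14.2 and 7.08. Budding markers summed to 14.9 to 26.4 in prophase libraries, against 75.3 and 80.4 at 0 and 2 h, with 3 of 6 called lower. All 8 mating markers summed to 1522.5 to 7428.7 in prophase libraries, against 298 and 1803 at 0 and 2 h. MFA1, of 111 bases, held most of this, at 1388 to 7248, against 288 and 1622, and was not called. Mating markers other than the very short MFA1 and MFA2 summed to 18.9 to 23.2, against 10.3 and 16.2, with 2 of 6 called higher, STE3 and MF(ALPHA)1. STE3 was at 2.74 to 3.86 in prophase libraries, against 1.15 and 0.541, and lost its call when any library other than that of 0 h was left out (adjusted p up to 0.0957 without 4.75 h). The part of other cells in the results was not tested.

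In all, 623 genes (9.58% of those tested) were called higher in prophase and 691 (10.6%) were called lower. The counts of called list members below are to be read beside these shares. The levels of the 5 prophase libraries lay wholly above the 0 and 2 h levels for 1267 genes (19.5%) and wholly below them for 1327 (20.4%). The median log2 change over all genes tested was -0.02. Any 2 prophase libraries differed by a median of 0.20 to 0.46 on the log2 scale over genes. They differed from the 0 h library by 0.78 to 0.86 and from the 2 h library by 0.66 to 0.76, and the 0 and 2 h libraries differed from each other by 0.61. Without scaling the counts were 931 higher and 236 lower, with the median of all genes at 0.48; with scaling 47.4% of calls were higher, and without it 79.8%. Without the 2 h library the counts were 830 and 833, and without the 0 h library 509 and 544.

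**Figure D1:**
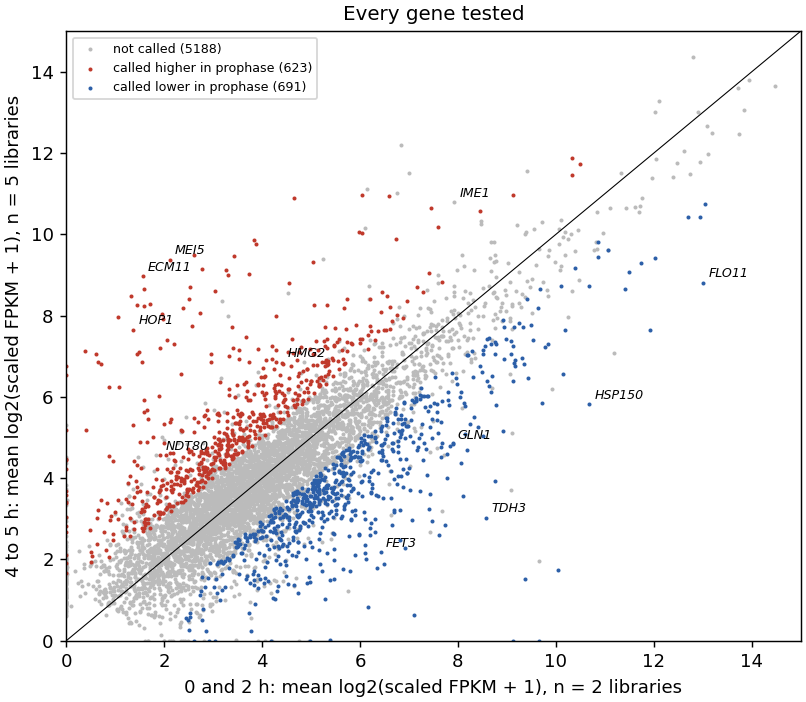
Mean log2(scaled FPKM + 1) of every gene tested, with the 5 prophase libraries on the vertical axis and the 0 and 2 h libraries on the horizontal axis. Red points are the 623 genes called higher in prophase, blue points the 691 called lower, grey points the rest, and the line marks equal levels; ECM11 and MEI5 lie far above it, TDH3 and FLO11 far below it.

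The regulators at the top of the programme were high in prophase, and the driven genes differed already between 0 and 2 h. IME1 (chromosome X, 604569 to 605651, build R64) stood at 2906, 2317, 1037, 1297 and 1939 in prophase libraries, against 61.8 at 0 h and 942 at 2 h. All 5 prophase values were above both early ones, but the log2 change of 2.87 ± 0.95 (SE) did not pass the test (adjusted p 0.0651, limma). Without the 2 h library it was 4.82 (adjusted p 0.0036) and without the 0 h library 0.91 (adjusted p 0.349); it also passed without scaling, with quantile normalisation and with 3.75 to 5.25 h (adjusted p 0.0367, 0.0323 and 0.0222). IME4 (chromosome VII, 142246 to 144048) stood at 1302, 612, 456, 490 and 595 in prophase libraries, against 9.29 and 103 at 0 and 2 h, a log2 change of 4.29 ± 0.83 (adjusted p 0.00961, limma). CUP1-1, a metallothionein gene whose own promoter was used for the driver, had 2260, 764, 362, 1025 and 1195 in prophase libraries, against 75.8 and 145. The gene is 186 bases long and 100% overlapped by another row, outside the limits set for the largest rises and falls. It had 2.2 and 6.1 implied fragments at 0 and 2 h, and 15.6 to 89.8 in prophase. It is one of a pair of near-identical copies, so reads may be split between them, and without the 0 h library its adjusted p was 0.0885.

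IME2, the kinase that Ime1 turns on and that pushes cells into premeiotic S phase and onward, shows the contrast most plainly. Its level was 549, 353, 325, 416 and 465 in prophase libraries, against 5.62 at 0 h and 3.96 at 2 h (log2 change 6.18 ± 0.27, adjusted p 9.28e-06, limma). At 2 h, where IME1 was at 942, IME2 was no higher than at 0 h. Of 22 meiotic regulators, 12 were called higher and 0 lower, with a median log2 change of 1.49. SLZ1, whose product joins the methyltransferase complex with Mum2 and Ime4, stood at 618, 464, 428, 541 and 554, against 11.4 and 13.2. MUM2 itself was at 103 to 136 in prophase, against 42.9 and 33.2. PHO92, which encodes the reader that binds methylated mRNA, was at 52.6 to 92.5 in prophase, against 1.29 and 0.456. All of these were called higher. UME6 was at 104 to 186, against 21.9 and 30.6, and RIM4, a translational repressor of meiosis, at 1442 to 1867, against 323 and 382. RIM11 and RIM15 (log2 changes 0.05 and 0.03) were among the regulators not called.

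Genes for meiotic recombination made up most of the largest rises. Of the 12 largest, ECM11, MEI5, NDJ1, MEK1, GMC2, HOP2, MND1, HOP1 and SPO16 all serve chromosome pairing or break repair; the others were IME2, RRT7 and the non-coding RNA RUF21. ECM11, which with Gmc2 helps the synaptonemal complex polymerise, stood at 467, 583, 418, 484 and 562 (503 ± 68.5, SD, n = 5 times), against 2.63 at 0 h and 1.39 at 2 h, for the largest log2 change of the 12, 7.41 ± 0.25 (adjusted p 6.29e-06, limma). MEI5, a partner of Dmc1, stood at 982, 548, 442, 759 and 719, against 9.97 and 0.702. The prophase libraries were far above both early ones in each case, and the early values rest on few fragments: 9.6 and 1.0 implied fragments at 0 and 2 h for MEI5, 4.0 and 3.0 for ECM11.

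The URS1 core, GCCGCC on either strand, was counted in the 250 bases before and 50 bases from the start codon of each gene, read from the R64 genome. None of the 5 motifs counted contains another. It was present in 5.08% of 5791 such windows, in 3.39% of those of genes called lower, and in 15.09% of those of genes called higher. The share was 8.06% where the log2 change was 1 to 2, 20.77% where it was 2 to 4, and 27 of 43 (62.79%) where it was 4 or more. The windows of 3 genes are shown because they hold the match and carry large rises; capitals mark the motif or its complement, and all run 5′ to 3′ on the gene's strand. They are MEI5 (minus strand of chrXVI:321581-321880), MEK1 (minus strand of chrXV:996462-996761) and HOP1 (plus strand of chrIX:226352-226651).
MEI5: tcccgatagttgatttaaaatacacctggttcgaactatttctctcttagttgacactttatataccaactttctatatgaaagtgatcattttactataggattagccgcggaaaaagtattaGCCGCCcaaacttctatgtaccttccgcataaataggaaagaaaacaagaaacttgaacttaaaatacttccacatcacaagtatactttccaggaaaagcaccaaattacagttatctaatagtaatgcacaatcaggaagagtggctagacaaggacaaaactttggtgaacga
MEK1: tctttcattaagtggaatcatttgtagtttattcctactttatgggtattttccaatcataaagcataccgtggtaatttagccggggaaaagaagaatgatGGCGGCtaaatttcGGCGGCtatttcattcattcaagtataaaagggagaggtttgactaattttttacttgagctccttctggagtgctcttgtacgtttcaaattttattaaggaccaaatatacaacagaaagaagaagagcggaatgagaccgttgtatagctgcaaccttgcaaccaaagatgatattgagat
HOP1: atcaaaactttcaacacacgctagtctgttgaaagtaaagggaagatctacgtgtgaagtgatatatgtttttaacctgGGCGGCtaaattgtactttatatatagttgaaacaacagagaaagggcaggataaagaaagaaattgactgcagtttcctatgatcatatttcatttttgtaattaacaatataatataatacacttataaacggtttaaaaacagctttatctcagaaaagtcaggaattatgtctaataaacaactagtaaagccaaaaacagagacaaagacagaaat
The match begins 126 bases before the start codon in MEI5 and 171 bases before it in HOP1, and MEK1 has matches at 148 and 134 bases. A match is a run of letters and not evidence of binding.

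Break formation rose almost as a whole: 10 of 11 genes were called higher, with a median log2 change of 2.15. SPO11, which makes the cut, stood at 42.4, 70.5, 49.3, 44.7 and 47.4, against 3.27 and 1.32. Its meiosis-specific partner MEI4 was at 94.7 to 146, against 2.72 and 1.28, and another, REC104, at 163 to 256, against 9.40 and 9.46. MRE11 and RAD50, which also act in mitotic repair, were called with smaller changes, and the third member of their complex, XRS2, had 7.40 to 10.4, against 5.90 and 6.37 (log2 change 0.51, not called). The axis list, HOP1, RED1, REC8 and the kinase MEK1 among its 5 genes, was called in full with a median of 6.09. HOP1 stood at 238, 224, 193, 172 and 182, against 1.73 and 1.42, and REC8, the meiotic cohesin, at 287, 245, 307, 229 and 255, against 3.53 and 2.31. MEK1 stood at 326, 219, 194, 234 and 297, against 1.44 and 0.76.

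Synapsis and strand exchange followed the same pattern. All 10 synaptonemal complex and ZMM genes were called higher (median 5.49), with ZIP1, the central element, at 211 to 269, against 2.30 and 3.64. GMC2 was at 223 to 395 in prophase, against 6.38 at 0 h and listed at 0 at 2 h. In strand exchange 9 of 12 were called (median 3.86). The meiosis-specific members had the largest changes: DMC1, the meiotic recombinase, was at 492 to 719, against 4.63 and 15.5, and HOP2 at 117 to 178, against a listed 0 at 0 h and 0.721 at 2 h. RAD54 was at 32.9 to 40.1, against 16.6 and 19.0, a log2 change of 0.94 that fell short of the size asked for, and RAD55 and RAD57 were not called either. The GCCGCC core was in 15 of 48 windows (31.25%) of the genes of break formation, axis, synapsis, strand exchange and resolution. None of the 11 resolution genes held it.

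Within crossover resolution, 6 of 11 genes were called higher (median 1.02), and 3 of 11 without the 0 h library. MLH3, whose product cuts crossover intermediates, stood at 41.0, 50.6, 52.4, 40.5 and 51.0, against 6.93 and 7.90. SGS1, the helicase that acts with Top3 and Rmi1, was at 44.8 to 52.9, against 9.65 and 10.7, and TOP3 was at 18.8 to 28.8, against 5.26 and 10.9. MUS81, for another nuclease, was called higher, at 11.7 to 21.9, against 1.92 and 5.59 (log2 change 2.02, and 1.45 without the 0 h library). MMS4 and YEN1, also for nucleases, were at 3.94 to 7.23 (against 3.85 and 5.76) and 4.20 to 6.62 (against 6.49 and 8.19), with groups that overlap. All 4 genes of telomere-led movement were called, led by NDJ1 at 336 to 477, against 3.26 and 1.15. CSM4, whose protein links telomeres to the cytoskeleton, was at 249 to 461, against 32.9 and 46.4.

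**Figure D2:**
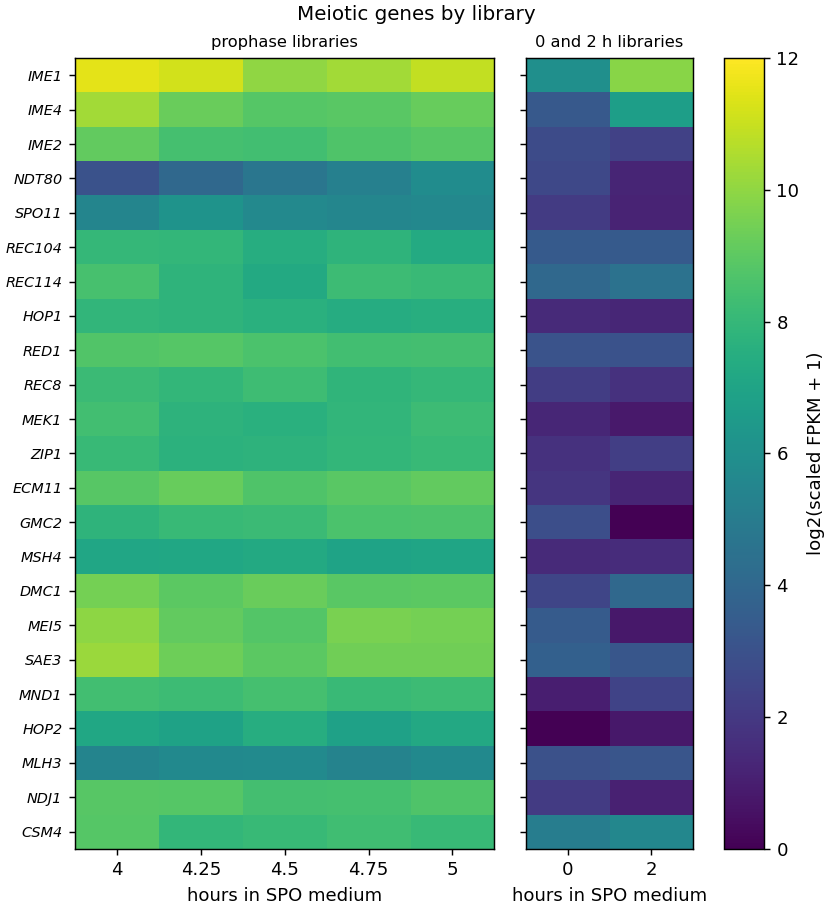
Colour gives log2(scaled FPKM + 1) of 23 meiotic genes, with the 5 prophase libraries in the left panel and the 0 and 2 h libraries in the right panel. IME1, IME4 and CSM4 are the brightest in the right panel; NDT80 brightens across the prophase panel, at 7.19 at 4 h and 55.9 at 5 h.

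Mitotic cohesin and its loaders gave 5 of 9 genes called higher (median 1.48), against 2 of 9 without the 0 h library. SCC2, the cohesin loader, stood at 64.3, 65.1, 50.6, 57.6 and 61.2, against 1.85 and 2.22. SMC3, a ring subunit that Rec8 and Mcd1 cohesin share, was at 28.8 to 56.1, against 12.1 and 9.37. MCD1, the mitotic kleisin that Rec8 takes the place of, was at 2.71 to 5.11, against 7.44 and 8.08 (log2 change -0.80, adjusted p 0.0948, limma), and was not called.

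Of 56 DNA replication genes, 15 were called higher and 0 lower (median 0.57); without the 0 h library it was 9 higher and 1 lower. CLB5, the S-phase cyclin, stood at 22.3, 25.7, 23.4, 21.7 and 21.3, against 2.52 and 3.85, and POL2, the leading-strand polymerase, at 38.4 to 47.7, against 7.33 and 7.79. RFA1, of the single-strand binding protein that also coats recombination intermediates, was at 58.7, 55.7, 85.9, 62.4 and 64.1, against 8.94 and 26.2. RNR2 and RNR4, the small subunits of ribonucleotide reductase, had negative log2 changes, -1.16 and -1.77, and were not called. The MCB element, ACGCGT, was in 3.14% of all windows and in 24 of 56 (42.86%) of these genes' windows, but the median log2 change was 0.55 with it and 0.57 without it. RFA1 is shown because it has 2 matches, at 165 and 135 bases before the start codon (minus strand of chrI:158570-158869).
RFA1: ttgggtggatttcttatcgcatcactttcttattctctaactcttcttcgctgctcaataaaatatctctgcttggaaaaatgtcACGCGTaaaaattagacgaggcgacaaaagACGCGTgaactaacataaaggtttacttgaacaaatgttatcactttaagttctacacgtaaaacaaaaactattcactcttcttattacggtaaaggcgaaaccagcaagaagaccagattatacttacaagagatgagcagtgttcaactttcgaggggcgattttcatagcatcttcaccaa
Only HTB2 of 10 histone genes was called, at 172, 109, 77.6, 55.1 and 36.5, against 9.63 and 13.6; without the 0 h library its adjusted p was 0.0803. This is 10% of the list, beside 9.58% of all genes. The list's median was 0.21 and turned to -0.01 without the 0 h library.

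Of 28 genes for the meiotic divisions, 17 were called higher and 0 lower, with a median of 1.29. PDS1, securin, stood at 87.2, 89.0, 123, 61.9 and 62.9, against 4.04 and 14.2, and IPL1, the Aurora kinase, at 20.7 to 45.3, against 2.06 and 2.18. SGO1, shugoshin, was at 33.0 to 59.0, against 3.55 and 8.13. By contrast CDC20, an activator of the anaphase-promoting complex, was at 2.87 to 8.50, against 10.8 and 5.62, and CLB1, a B-type cyclin, had a log2 change of -0.44; neither was called. AMA1, the meiosis-specific activator of the same complex, was at 127, 141, 183, 137 and 156, against 2.48 and 3.13 (log2 change 5.29 ± 0.21, adjusted p 7.88e-06, limma).

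Of 34 middle sporulation genes, 8 were called higher and 0 lower, with a median of 1.40. Without the 4 h library 13 of 34 were higher, and without the 4.75 h library 6 of 34. With all 23 libraries in the fit 3 of 33 were higher. With 4 to 4.5 h only, 5 of 32 were higher and 1 lower. NDT80 stood at 7.19, 15.7, 24.9, 36.6 and 55.9, against 4.97 and 1.36. Its log2 change of 2.66 ± 0.73 passed (adjusted p 0.0359, limma), but the call was lost when any library other than that of 4 h was left out, with adjusted p up to 0.189 without 2 h. MPC54, of the meiotic plaque of the spindle pole body, was already at 119, 78.1, 57.6, 67.5 and 52.2, against 7.02 and 11.5. SPO74, another plaque component, was at 3.02, 4.55, 5.10, 10.4 and 21.6, against 0.447 and 0.63, and lost its call without the 0, 2 or 4.75 h library (adjusted p up to 0.135). The core of the Ndt80 site, CACAAAA, was in 7.56% of all windows, 10.0% of those of genes called higher and 7.5% of those of genes not called. It was in 21 of 34 (61.76%) of the middle genes' windows. Their median log2 change was 1.575 with it and 1.153 without it. SPO74 is shown because its level climbs across the hour (minus strand of chrVII:185345-185644; the match begins 121 bases before the start codon).
SPO74: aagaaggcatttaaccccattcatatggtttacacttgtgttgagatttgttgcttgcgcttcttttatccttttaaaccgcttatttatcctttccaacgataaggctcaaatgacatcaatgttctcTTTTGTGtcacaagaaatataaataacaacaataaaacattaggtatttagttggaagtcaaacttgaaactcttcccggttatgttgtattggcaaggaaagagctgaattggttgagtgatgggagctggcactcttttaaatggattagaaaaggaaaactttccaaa

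The 5 libraries were also fitted for a slope over the hour, which asks whether they form a plateau. Over 6502 genes 0 slopes were called, with a lowest adjusted p of 0.219 (limma, 3 residual degrees of freedom). NDT80, at 7.19 at 4 h and 55.9 at 5 h, had that same adjusted p, so 0 calls cannot show a plateau. In all, 629 genes had an unadjusted p under 0.05 (limma), 380 rising (5.84%) and 249 falling (3.83%). Adding the 3.75 and 5.25 h libraries gave 58 called slopes. Slopes of any p were positive for 32 of 34 middle genes and 125 of 137 cytosolic ribosomal protein genes. At an unadjusted p under 0.05 (limma), 22 and 55 of them rose, and 1 and 0 fell. The list medians were 1.81 and 1.51 log2 units per hour, beside -0.02 for all genes tested. Histones had a median of -1.10, with 4 of 10 falling at an unadjusted p under 0.05 (limma). The synaptonemal complex list had a median of 0.01 and the axis list -0.18. SPR28, a sporulation septin, stood at 6.70, 10.1, 16.9, 38.1 and 45.3 within the hour.

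**Figure D3:**
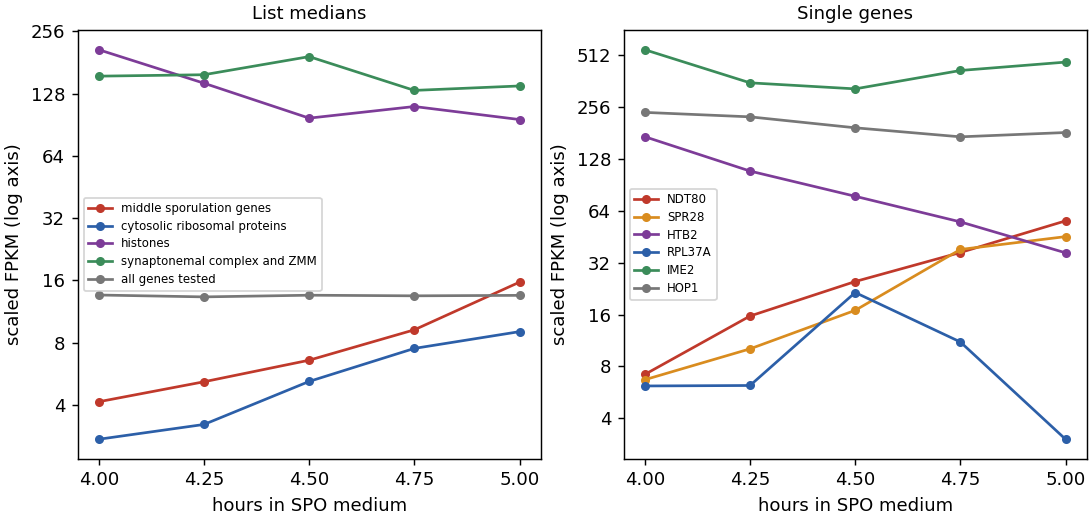
Scaled FPKM on a log axis at the 5 prophase times, as the median of each list on the left and for single genes on the right. The middle gene median is at 4.15 at 4 h and 15.7 at 5 h and the ribosomal protein median at 2.73 and 9.05, while the synaptonemal complex median is at 156 and 139 and the histone median at 209 and 95.9.

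The lists with the highest share of members called lower were glycolysis and cell surface; the 12 largest single falls also held ERG3 and FET3. Of 25 glycolysis and fermentation genes, 18 were called lower and 0 higher; all 25 log2 changes were negative and the median was -1.99. TDH3, the main glyceraldehyde-3-phosphate dehydrogenase, stood at 6.75, 7.93, 7.05, 5.47 and 9.12, against 523 at 0 h and 277 at 2 h, a log2 change of -5.54 ± 0.29 (adjusted p 2.88e-05, limma). Its copies TDH2 and TDH1, and the enolases ENO1 and ENO2, are similar enough in sequence for reads to be split between them, and all were called lower. FBA1, the single aldolase gene, was at 7.47 to 8.99, against 206 and 138. TYE7, an activator of glycolytic genes, was at 2.01 to 7.99, against 166 and 75.8. The prophase levels of the genes given with values lay far under both early libraries, of which 0 h was the higher.

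Cell surface genes were called lower in 15 of 21 cases (median -2.32). HSP150, a secreted wall protein, stood at 65.1, 58.6, 45.9, 52.4 and 56.5, against 1728 and 1563, and FLO11, the flocculin of filamentous growth, at 740, 737, 421, 317 and 244, against 8773 and 7743. TIP1, a mannoprotein, was at 143 to 278, against 4878 and 3057. TIR1, an anaerobic mannoprotein, was the only member called higher, at 9.62 to 41.0, against a listed 0 at 0 h and 5.82 at 2 h, but 0 members were without the 0, 4.5, 4.75 or 5 h library. Of 32 G1 cyclin and budding genes, 11 were called lower and 4 higher, against 7 lower without the 0 h library and 5 lower with 5 higher without scaling. CLN3, the cyclin that starts the mitotic cycle, was at 6.98 to 11.3, against 69.7 and 35.9, and EGT2, of mother-daughter separation, at 1.88 to 3.55, against 31.8 and 14.5. The members called higher were SWI4 (64.2 to 92.2, against 15.8 and 25.1), WHI5 and the septins CDC3 and CDC10. The list's median was -0.43 and turned to 0.09 without scaling.

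**Figure D4:**
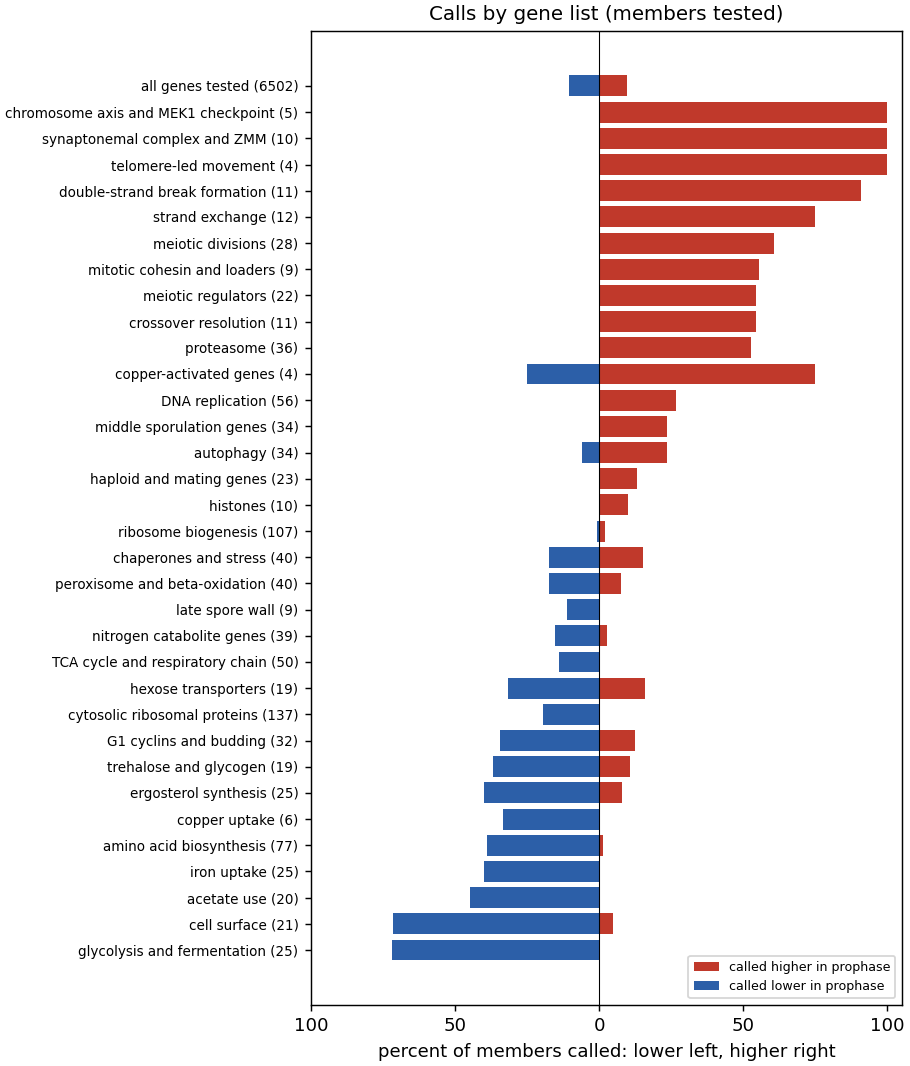
Percent of the tested members of each list called higher in prophase (red, to the right) or lower (blue, to the left), with the number tested in brackets and all genes tested in the top row. Chromosome axis, synaptonemal complex and telomere lists reach 100% higher; glycolysis and cell surface reach 72.0% and 71.4% lower.

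For acetate use, 9 of 20 were called lower and 0 higher (median -0.97), and 5 without scaling. FBP1, of gluconeogenesis, stood at 8.49, 6.41, 8.87, 5.92 and 2.87, against 288 and 33.7, and ATO2 and ATO3, putative ammonium exporters, were called lower too. ADY2, the acetate permease, was at 6196 to 11773, against 3235 and 5354, above both early libraries but not called (log2 change 0.98, adjusted p 0.148, limma). In the TCA cycle and respiratory chain 7 of 50 (14.0%, beside 10.6% of all genes) were called lower (median -0.64), a count that was 0 without scaling, 2 without the 0 h library, 13 without that of 2 h and 3 or 4 without that of 4, 4.25, 4.5 or 4.75 h.

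Of 77 amino acid genes, 30 were called lower and 1 higher, PRO3 (median -1.02); 11 were lower without scaling. HIS4 stood at 1.83, 1.54, 3.12, 1.98 and 1.5, against 39.3 and 23.1, and LYS1 at 11.2 to 18.3, against 110 and 104. Of 25 ergosterol genes, 10 were called lower (4 without scaling) and 2 higher (median -1.21). ERG3, a sterol desaturase, was at 4.78 to 8.10, against 222 and 142. The 2 genes of HMG-CoA reductase, the rate-limiting enzyme, went opposite ways: HMG2 stood at 98.6, 135, 125, 101 and 115, against 17.9 and 22.7 (log2 change 2.44 ± 0.22, adjusted p 0.000377, limma), and HMG1 at 5.59, 6.85, 7.90, 5.71 and 6.98, against 30.0 and 25.5 (log2 change -1.92 ± 0.21, adjusted p 0.000927, limma).

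Metal genes were read beside the copper added at 2 h. Iron uptake genes were called lower in 10 of 25 cases and higher in 0 (median -0.92); without the 2 h library 16 were lower. FET3, the multicopper oxidase of iron uptake, stood at 3.67, 3.43, 2.37, 4.43 and 3.99, against 186 and 38.5, and SIT1, a siderophore transporter, at 10.6 to 14.6, against 184 and 121. Of 6 copper uptake genes, 2 were called lower and 0 higher (median -0.64), and 1 was lower without scaling or without the 0, 4, 4.25, 4.75 or 5 h library. CTR3, a copper transporter, was at 6.00 to 17.7, against 167 and 46.3. Of 4 copper-activated genes, 3 (CUP1-1, CUP1-2 and CRS5) were called higher, but 0 without the 0 h library and 1 without that of 4, 4.25 or 4.75 h. SOD1, the copper-zinc superoxide dismutase, was called lower, at 95.8, 90.3, 192, 115 and 141, against 695 and 348, but not without scaling or without the 0 h library (adjusted p 0.0578 and 0.0642).

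For nitrogen and ribosome genes the result turned on which early library was used. The 0 and 2 h levels lay at least 1 log2 unit apart for 1880 genes, and for 1021 of these (54.3%) the prophase mean lay between them. Of 39 nitrogen catabolite genes, 6 (15.4%, beside 10.6% of all genes) were called lower and 1 higher. Starvation for good nitrogen sources releases these genes through GATA factors. Their median change was 0.22 against 0 h and -1.34 against 2 h, with 23 called lower without the 0 h library, and 4 called higher and 7 lower without the 2 h library. MEP2, the ammonium permease that senses nitrogen, was at 24.2, 22.9, 44.0, 12.9 and 6.61, against 1.43 at 0 h and 372 at 2 h. GAP1, a permease for most amino acids, was at 12.7 to 27.3, against 11.9 and 315. Both stood well above 0 h at 2 h and nearer 0 h again in prophase. Members low against both libraries were fewer; GLN1, glutamine synthetase, stood at 19.2, 20.6, 54.5, 24.8 and 30.2, against 251 and 223, and CPS1, a vacuolar carboxypeptidase, at 11.5 to 16.4, against 77.5 and 137. The GATA site, GATAAG, was in 14.76% of all windows, 20.03% of those of genes called lower and 17 of 39 (43.59%) of those of this list. CPS1 is shown because 2 overlapping matches stand at 181 and 176 bases before its start codon (plus strand of chrX:97487-97786).
CPS1: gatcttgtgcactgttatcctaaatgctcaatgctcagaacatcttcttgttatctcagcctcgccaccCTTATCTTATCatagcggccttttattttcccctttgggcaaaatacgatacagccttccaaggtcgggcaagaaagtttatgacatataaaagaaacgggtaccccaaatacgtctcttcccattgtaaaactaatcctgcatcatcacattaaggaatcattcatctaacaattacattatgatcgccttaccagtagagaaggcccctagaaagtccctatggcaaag

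Ribosome biogenesis showed the same dependence. Over all genes tested the prophase mean lay between 0 and 2 h for 29.9%, and among the 107 genes of this list for 74. Only 2 of the 107 were called higher and 1 lower. Their median change was -1.03 against 0 h and 0.63 against 2 h; 36 were called lower without the 2 h library, and 18 higher without the 0 h library. Without scaling 6 were higher and 0 lower, with a median of 0.30 in place of -0.21. RRP36, of the small subunit processome, averaged 13.9 in prophase, against 41.8 at 0 h and 3.27 at 2 h. BUD21, of the same particle, was called higher, at 52.2 to 95.3, against 15.8 and 11.1. The PAC core, GATGAG, was in 20.2% of all windows, 15.96% of those of genes called higher and 20.67% of those of genes not called. It was in 98 of 107 (91.59%) of the ribosome biogenesis windows. Cytosolic ribosomal protein genes lay lower against both libraries, with medians of -1.90 and -1.16. Of 137, 27 were called lower and 0 higher; 8 were lower without the 0 h library, 14 without that of 4.25 h and 6 without scaling. RPS10B stood at 7.65, 5.77, 2.66, 9.63 and 9.39, against 103 and 53.1. It rested on 1.0 to 7.0 implied fragments in prophase libraries, against 25.8 at 0 h and 18.9 at 2 h. Duplicate ribosomal protein genes share sequence, so the copies may not be told apart.

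**Figure D5:**
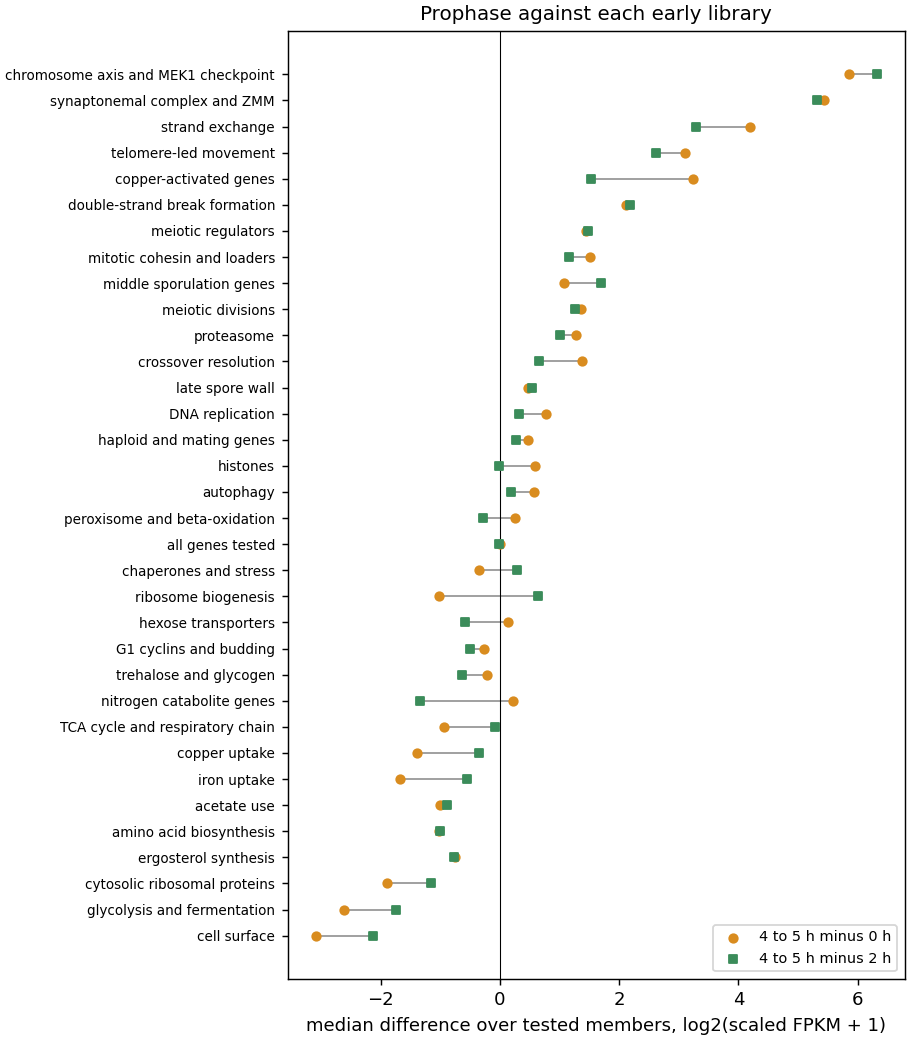
Median difference in log2(scaled FPKM + 1) over the tested members of each list, as the prophase mean minus 0 h (orange circles) and minus 2 h (green squares), joined by a line. Nitrogen catabolite genes are at 0.22 and -1.34 and ribosome biogenesis at -1.03 and 0.63, on opposite sides of 0, while the axis list is at 5.86 and 6.32.

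Of 36 proteasome genes, 19 were called higher and 0 lower, 35 log2 changes were positive, and the median was 1.16. PUP1, a catalytic subunit of the core, stood at 70.7, 89.7, 166, 77.7 and 75.8, against 17.5 and 14.0, and RPN12, of the lid, at 78.5 to 125, against 36.6 and 27.9. RPN4, the factor that activates proteasome genes, was at 69.5 to 95.1, against 123 and 96.5, and was not called (log2 change -0.41). The medians were 1.27 against 0 h and 1.00 against 2 h, and 5 were called without the 0 h library. Of 34 autophagy genes, 8 were called higher and 2 lower (median 0.19), against 13 and 0 without scaling (median 0.74), and 2 to 5 were higher without 1 library of 0, 4, 4.25, 4.75 or 5 h. VPS30, of the lipid kinase that starts the autophagosome, was at 23.8 to 31.3, against 8.84 and 8.67, and ATG19, the receptor of a selective route, at 18 to 25.7, against 51.1 and 57.9. Of 40 chaperone and stress genes, 6 were called higher and 7 lower (15% and 17.5%, beside 9.58% and 10.6% of all genes). Without the 0 h library 4 were lower, and without scaling 2, with the median turning to 0.37 in place of -0.19. HSP82, an inducible Hsp90, stood at 276 to 420, against 155 and 55.9, and its co-chaperone YDJ1 at 58.4 to 102, against 22.2 and 16.6. GRE2, a stress reductase, was at 0.585 to 3.00, against 9.56 and 16.2.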

How the data were processed

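Per the labels' protocols, total RNA was purified with Ambion Ribopure reagents, primed with random hexamers and built into libraries with NuGEN Ovation chemistry, 1 library per time. The authors deposited FPKM per gene with lower and upper bounds, per the file headers. Bowtie and Cufflinks 2.2.1 were used with builds R64 and sacCer3, per the submitters' processing notes; no source used here gives the Bowtie version, the annotation or a strand setting, and without strand the reads of overlapping antisense genes cannot be separated. Of 7132 rows, 11 with too many fragments and 254 naming no gene (at most 0.0161% of implied fragments) were left out. Of 6867 genes, 6502 with a mean of at least 1 scaled FPKM over the 7 libraries were tested and 365 were not.

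The 7 libraries were scaled by median of ratios and fitted with limma 3.58.1 (R 4.3.3, two-sided, eBayes with a mean-variance trend) on log2(scaled FPKM + 1), a pseudocount of 1 that understates the change of low genes. The contrast has 5 residual degrees of freedom. The script was tested on simulated data. Implied fragments were taken from the deposited bounds as the square of 2F / (U - F), where F is the FPKM and U its upper bound, on the assumption that these are counting bounds of 95%; they cover counting error only. No count test was run. Of 6716 systematic identifiers, 6022 matched RefSeq, and 99.4% of those had the same position in R64, from which the promoter windows were read. Coordinates are counted from 1.

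The members, the 33 gene lists, the motifs and the rules were chosen with earlier results of these data known. For 4 listed names no row was found (SPS101, OSW4, OSW6 and ATG6, an older name of VPS30). Named were IME1, IME4, NDT80, IME2 and CUP1-1, then 12 rises and 12 falls, the largest among calls with a standard name, at least 300 bases, under 40% overlap with another row, at least 10 scaled FPKM and groups that do not overlap, then at most 4 called genes per list; not all are printed, and a few results are not reported here. Genes named in addition, such as MCD1, HMG1, ADY2, MEP2, GAP1, RRP36, RPN4, SPR28 and uncalled partners of named genes, were picked once their values had been seen. The alternatives tried were other scalings, pseudocounts, filters and library sets, and leaving out each library.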

Additional observations from a re-analysis of the deposited data

Results flagged for a closer look

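Of 127 named genes, 7 had 1 prophase library that stood apart from the other 4 beyond Dixon's 95% critical value, where chance flags about 1 in 20. The 4 h library was high for IME4 (1302 scaled FPKM, others 456 to 612), SAE3, a Dmc1 partner (1176.3, others 495 to 681), and SMC3 (56.08, others 28.8 to 35.6). The 4.25 h library was high for SPO11 (70.509, others 42.4 to 49.3). The 4.5 h library was high for SPO16, a synapsis gene (273.14, others 63.6 to 120.7), RFA1 (85.886, others 55.7 to 64.1) and PUP1 (165.85, others 70.7 to 89.7). All 7 were high values, and the lowest of the other libraries stayed above both early libraries in each. Their part in the calls was measured by leaving out that library, and none of the 7 genes lost its call.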

How the results depend on the processing

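No paired analysis was possible because the labels give no replicate numbers and each time is a single library. Leaving out each library gave 509 to 830 genes called higher (623 with all 7), 544 to 833 called lower (691) and 0 to 0 called slopes; the 0 h and 2 h libraries set both ends. The counts called lower without scaling (236) and called with all 23 libraries in the fit (217 higher, 273 lower) moved by over 1.5 times. So did those with 4 to 4.5 h only (322 higher, 345 lower) and the slopes with 3.75 to 5.25 h (58). The cause was not tested. The 4 to 4.5 h fit had both fewer libraries and a narrower window, and the fit of all 23 libraries took its spread from the other times too. With all 23 libraries 1 of 36 proteasome, 2 of 56 replication, 6 of 22 regulator, 5 of 11 break formation and 6 of 28 division genes were called higher, and 0 of 137 ribosomal protein, 14 of 77 amino acid, 4 of 25 ergosterol and 4 of 20 acetate genes lower; with 4 to 4.5 h only, 2 proteasome and 8 replication genes were higher and 9 of 21 cell surface, 16 amino acid, 5 ergosterol and 4 acetate genes lower. Other scalings, pseudocounts, filters and the fit without trend gave 470 to 931 higher and, without counting the unscaled fit, 578 to 696 lower. Of 126 called named genes, 99 kept the call without each library and 72 in every setting run; 0 changed sign. Named genes that lost a call without some library, beside those given with their values, included OSW7, MUS81, IRR1, PDS5, ATG7, ATG1, CTR1, ATP17, COX13, NDE2, FAA2, IMP4, PRE2, SSA3, HXT6, HXT7, HXT5, STE3, RPL37A, RPL27B and RPS16B. Depth limits the low early values of recombination genes and the low prophase values of ribosomal protein genes. Some of each rest on under 10 implied fragments.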

Other observations

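Among 19 hexose transporter genes, 6 were called lower and 3 higher in prophase, with a median of -0.23 that turned to 0.29 without scaling, where 2 were lower and 5 higher. HXT7, a high-affinity transporter, stood at 1.19, 1.34, 2.07, 1.81 and 2.04 scaled FPKM, against 138 at 0 h and 5.63 at 2 h, so that most of the difference lies between the early libraries. It is nearly identical to HXT6, and its call was lost without 6 of the 7 libraries in turn (adjusted p up to 0.0722 without 4.25 h). On leaving out a library other than that of 2 h, 1 or 2 were called lower. HXT8 stood at 5.65 to 9.57, against 1.54 and 2.60. Of 19 trehalose and glycogen genes, 7 were called lower and 2 higher (median -0.61), against 4 and 3 without scaling (median -0.04): GPH1, glycogen phosphorylase, was at 11.8 to 21.4, against 206 and 130, and TPS2, of trehalose synthesis, at 25.6 to 34.0, against 174 and 180. Of 40 peroxisome genes, 7 were lower (17.5%, beside 10.6% of all genes) and 3 higher (7.5%, beside 9.58%), with a median of 0.04. Those counts were 4 lower and 9 higher without the 2 h library, 0 and 5 without scaling (median 0.50), and 3 lower without the 5 h library or 4 without that of 4.25 or 4.75 h. PXA1, of the fatty acid importer, was at 145 to 202, against 48.0 and 82.3. Of 9 late spore wall genes, 1 was called lower (11.1%, beside 10.6% of all genes) and 0 higher. Without the 4, 4.25, 4.75 or 5 h library or without scaling 0 were lower, and without scaling 1 was higher. Of 23 haploid and mating genes, 3 were higher (13.0%, beside 9.58% of all genes) and 0 lower. MF(ALPHA)1, the alpha-factor gene of haploid cells, was at 4.56 to 7.40 in prophase libraries and was listed at 0 at both 0 and 2 h. Its prophase values rest on only 3.0 to 9.0 implied fragments.

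RRT7, an open reading frame of unknown function, stood at 99.2, 134, 46.8, 97.9 and 104 and was listed at 0 at both 0 and 2 h. RUF21, a non-coding RNA, was at 112 to 168, against a listed 0 at 0 h and 1.30 at 2 h. Genes with no standard name numbered 96 among those called higher and 144 among those called lower, and 88 of these overlapped another row by at least 40%. The share of such genes among all genes tested was not counted, so whether they were called more or less often is not known.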
